A study of Mus musculus with 2 samples.

Results

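The primed and germ-layer lineage genes described here are 10 mouse genes in 4 lineages: Otx2, Fgf5 and Pou3f1 of the primed epiblast, Gata4, Gata6, Sox17 and Foxa2 of the endoderm, T and Eomes of the mesoderm, and Cdx2 of the trophoblast. They were chosen by name among 21938 protein-coding genes of GENCODE release M21 on the mouse build mm10. Every ATAC-seq peak from 20 kb upstream to 20 kb downstream of each gene was taken, which gave 52 of the 116782 peaks in the deposited list. No peak was shared between these genes.

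Accessible chromatin was mapped by ATAC-seq, which uses cutting by the transposase Tn5 as its readout, in mouse embryonic stem cells (mESCs) of the EHMT2-dTAG-mcherry line, made from KH2 mESCs and labelled as a BL6/129 hybrid. In this line the endogenous EHMT2, a histone H3 lysine 9 methyltransferase, carries a degron tag through which it can be depleted with a small molecule. The cells were grown with FBS and LIF in KO DMEM, per the methods on a feeder layer of mouse embryonic fibroblasts. The ATAC-seq methods name no step that removes feeder cells. The mESCs were given DMSO, the vehicle, for 24 h, which leaves EHMT2 in place. The 2 samples, from 2 clones with 50000 cells each, were merged by the authors before peaks were called. The data are therefore 1 peak list for 1 group, with no spread between replicates and no treated group to compare with.

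Mouse ESCs in serum and LIF are in or near the naive pluripotent state, and pass through a formative and a primed state before they enter the germ layers. Otx2, Fgf5 and Pou3f1 are used as early marks of that exit. Gata4, Gata6 and Sox17 direct primitive endoderm, Foxa2 and Sox17 definitive endoderm, T and Eomes the primitive streak and mesoderm, and Cdx2 the trophectoderm. Many genes of this kind are kept silent in ESCs under broad Polycomb-bound CpG islands, whose DNA can still be accessible, so an ATAC-seq peak at a start is not a measure of transcription.

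Peaks covered the annotated start of 7 of the 10 genes, namely Otx2, Fgf5, Gata6, Sox17, T, Eomes and Cdx2. Over all protein-coding genes, 59.2% of the starts were covered, so the count by itself lay near the background. Each peak carries a −log10 q-value, the significance of its summit after adjustment for the many positions tested, and the lowest in the list was 1.301. With a −log10 q of 10 or more, only Fgf5 and Eomes kept a start peak, 2 of 10 genes against 45.0% of all genes. Gata4 and Sox17 also had a peak above that cut over transcript starts inside the gene, with −log10 q-values of 16.2 and 19.9. The matching share of all genes was not computed. When the start of any annotated transcript was counted without the cut, Gata4 and Foxa2 were added and 9 of 10 genes had a peak, against 66.6%. Pou3f1 alone had no peak over any annotated start of its own. In a population of cells, accessibility in fewer cells and lower accessibility in every cell cannot be told apart.

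**Figure D1:**
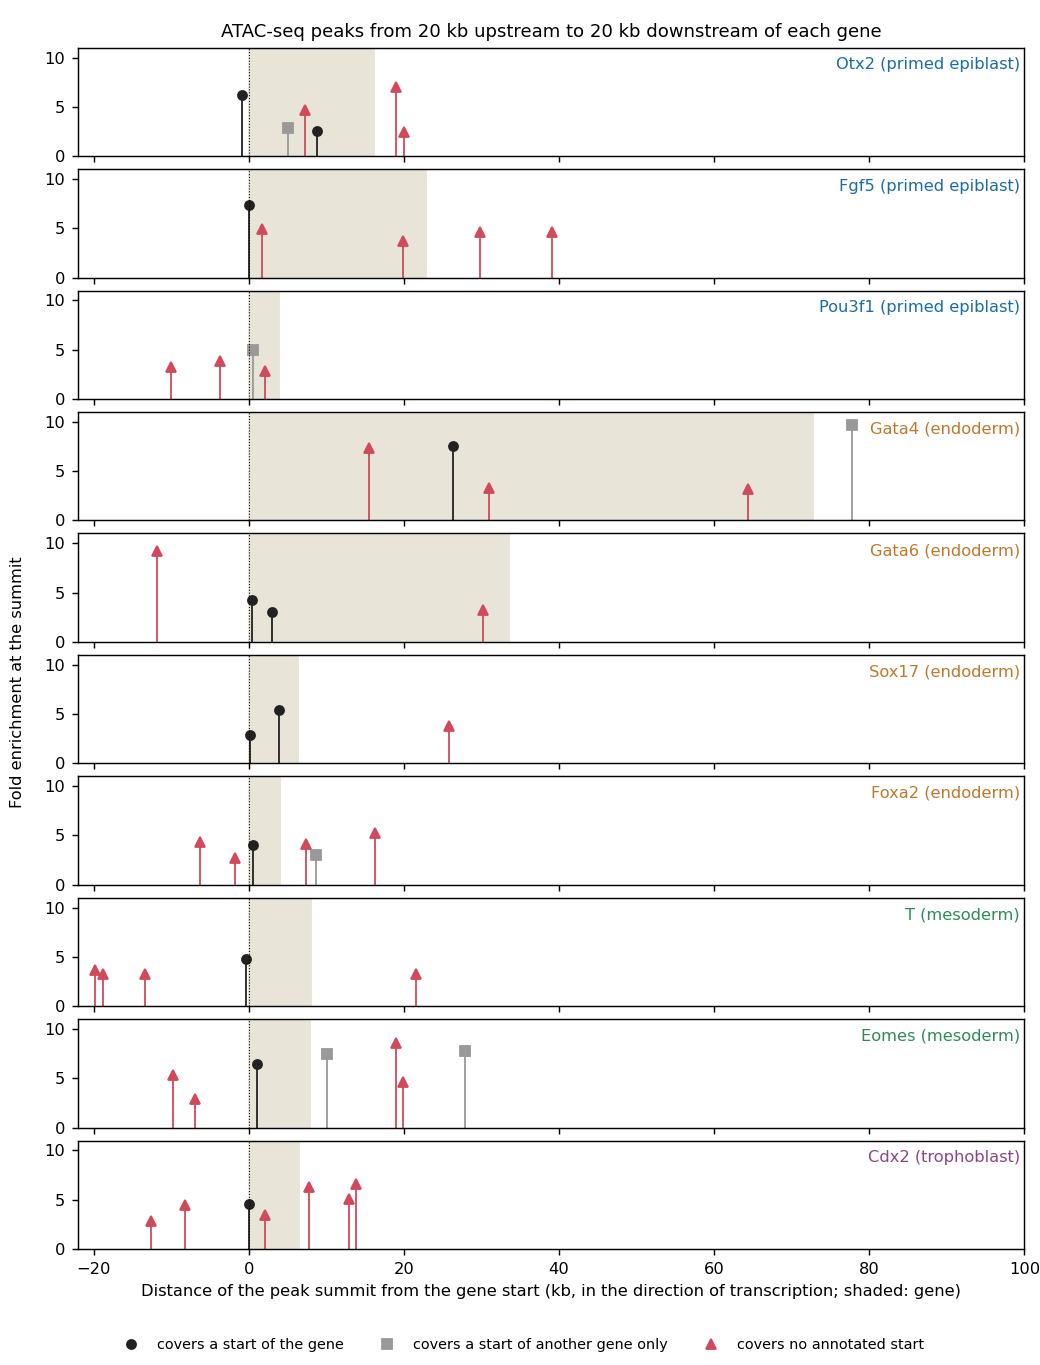
Peaks around each of the 10 genes, with the distance of the summit from the gene start in kb on the x axis, in the direction of transcription, and the fold enrichment on the y axis. Shading marks the gene, and the 3 symbols mark peaks over a start of the gene (12), over a start of another gene only (6) and over no annotated start (34). No peak reached a fold enrichment of 10.

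The strength of a peak is given as its fold enrichment, the number of fragments over the summit plus 1 divided by the local background plus 1. The 7 start peaks had a median fold enrichment of 4.78, with a range of 2.86 (Sox17) to 7.33 (Fgf5). The median over the 12990 start peaks of all protein-coding genes was 8.68, with quartiles of 6.12 and 11.6. Each of the 7 lay below that median. Their widths went the other way: the median was 1526 bp against 1058 bp, and 5 of 7 were wider than the median start peak.

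Among the primed epiblast genes, Otx2 and Fgf5 had start peaks and Pou3f1 did not. Otx2 encodes a homeodomain factor of the formative and primed epiblast and later of the forebrain. The gene (ENSMUSG00000021848.16) lies at chr14:48657677-48673819 on the minus strand. Its start peak was 1526 bp wide with a fold enrichment of 6.25, a −log10 q-value of 8.71 and 16 fragments over the summit (exact 95% Poisson interval 9.15 to 25.98, given in the same way for the other peaks). Its summit was 866 bp upstream of the start, in an intron of the antisense gene Otx2os1, and the peak also covered the starts of Otx2os1 and Gm49154, so it cannot be assigned to Otx2 alone. The sequence under the summit, chr14:48674635-48674735 of mm10 read on the minus strand, held 2 CpG dinucleotides, printed in capitals.
Otx2 start peak: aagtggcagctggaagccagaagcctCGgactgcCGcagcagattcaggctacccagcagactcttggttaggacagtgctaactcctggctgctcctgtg

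Otx2 has 10 annotated transcript starts, of which 2 were in peaks. The second was 8713 bp inside the gene, under a peak of only 200 bp with a fold enrichment of 2.58 and 12 fragments. The other starts, among them a cluster from 6175 to 6311 bp inside, were not covered. The strongest peak of the Otx2 surroundings was not at a start. Its summit was 18972 bp from the start, downstream of the gene, with a fold enrichment of 6.97, a −log10 q-value of 20.3, a width of 1375 bp and 40 fragments (28.6 to 54.5), and stood above 80.8% of all peaks in the list. It was the only Otx2 peak with a −log10 q of 10 or more. Its summit, at chr14:48654797-48654897 on the minus strand, is shown because it is the strongest peak over no start among the primed epiblast genes. No motif searched was found in it, so it is printed without capitals.
Otx2 downstream peak: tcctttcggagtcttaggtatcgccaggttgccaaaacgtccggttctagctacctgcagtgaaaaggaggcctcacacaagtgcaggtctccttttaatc

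Fgf5, a fibroblast growth factor ligand and a standard mark of the postimplantation epiblast, had the strongest start peak of the 10 genes. The gene (ENSMUSG00000029337.2) lies at chr5:98254184-98277030 on the plus strand. Its start peak had a fold enrichment of 7.33, a −log10 q-value of 17.997 and 33 fragments (22.7 to 46.3), and its summit was 80 bp inside the 5′ UTR. At 1047 bp it was about as wide as the median start peak, and 36.5% of start peaks had a lower fold enrichment. Both annotated transcript starts were covered. The other 4 Fgf5 peaks covered no start. An intronic peak 1765 bp inside the gene had a fold enrichment of 4.94 with 22 fragments, and an intronic peak at 19.8 kb had 3.70 with 7 fragments. A pair of downstream peaks, 29.8 and 39.1 kb from the start, each had 4.62 with 9 fragments.

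Pou3f1, also called Oct6, encodes a POU-domain factor of the primed epiblast and of neural progenitors. The gene (ENSMUSG00000090125.3) lies at chr4:124656807-124660655 on the plus strand and has 1 annotated transcript. A peak began 139 bp inside it and so missed the start. This peak was 1508 bp wide with its summit 504 bp inside, in the UTR, and had a fold enrichment of 5.00, a −log10 q-value of 7.60 and 19 fragments (11.4 to 29.7). It covered the start of Gm2164, so its reads cannot be assigned to either gene. A second peak within the coding sequence had a fold enrichment of 2.79 with 9 fragments. Upstream, peaks at 3637 and 9993 bp, in introns of Gm2164, had fold enrichments of 3.85 and 3.28 with 12 and 7 fragments. The 50 bases just upstream of the uncovered start, chr4:124656757-124656806 on the plus strand, held 3 CpG dinucleotides, in capitals.
Pou3f1 upstream: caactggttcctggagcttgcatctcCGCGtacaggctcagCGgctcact

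The endoderm genes had a start peak at 2 of 4 genes, and peaks over an inner transcript start at all 4. Gata4, a zinc finger factor of primitive endoderm and heart, has its annotated gene start far from any peak. The gene (ENSMUSG00000021944.15) lies at chr14:63198922-63271692 on the minus strand, and the nearest peak was 15362 bp from the start. The CpG observed/expected ratio within 500 bp of that start was 0.174, the lowest of the 10 genes. The strongest peak over a Gata4 start instead covered a pair of inner starts, 26421 and 26444 bp inside. It was 1731 bp wide with a fold enrichment of 7.59, a −log10 q-value of 16.2 and 28 fragments (18.6 to 40.5). Measured by the same yardstick as the start peaks, this inner peak exceeded all 7 of them in fold enrichment, although counting intervals overlapped. Sequences upstream of the uncovered start (chr14:63271693-63271742) and under the summit of the inner peak (chr14:63245361-63245461), both on the minus strand, are set side by side with CpG dinucleotides in capitals, 2 in the former and 9 in the latter.
Gata4 gene start, upstream: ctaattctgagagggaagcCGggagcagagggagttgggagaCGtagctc
Gata4 inner start peak: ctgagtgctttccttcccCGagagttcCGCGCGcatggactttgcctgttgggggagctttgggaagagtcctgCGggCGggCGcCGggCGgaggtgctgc

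Gata4 had 4 other peaks. An intronic peak 15.5 kb inside the gene, between the uncovered and the covered starts, had a fold enrichment of 7.37, a −log10 q-value of 13.1 and 22 fragments (13.8 to 33.3). It covered no start. Its summit sequence, chr14:63256095-63256195 on the minus strand, begins with a match to the GATA-factor motif AGATAA on the opposite strand, printed in capitals. It is shown as the strongest peak over no start among the endoderm genes other than Gata6, for which no sequence is given.
Gata4 intronic peak: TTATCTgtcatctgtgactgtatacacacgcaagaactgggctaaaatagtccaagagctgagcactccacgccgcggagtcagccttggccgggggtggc
The peak of highest fold enrichment near any of the 10 genes was 77.7 kb from the Gata4 start, beyond the end of the gene, with 9.70, a −log10 q-value of 21.7 and 31 fragments (21.1 to 44.0). It covered the start of Neil2, a DNA glycosylase gene, and no start of Gata4. The remaining peaks, in the coding sequence at 30.9 kb and in an intron at 64.3 kb, had fold enrichments of 3.31 and 3.24 with 10 and 6 fragments.

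Gata6, which acts with Gata4 and earlier than it in primitive endoderm, had a wide and weak start peak. The gene (ENSMUSG00000005836.10) lies at chr18:11052064-11085635 on the plus strand. The start peak was 1732 bp wide, wider than 92.1% of start peaks, with a fold enrichment of 4.25, a −log10 q-value of 7.53 and 24 fragments (15.4 to 35.7). It covered 4 of the 6 transcript starts and also the start of the divergent gene 1010001N08Rik. A second, narrow peak over a further start, 3.0 kb inside, had 3.03 with 15 fragments. The strongest Gata6 peak lay 11.8 kb upstream in an intron of 1010001N08Rik, with a fold enrichment of 9.18, a −log10 q-value of 19.2, a width of 1553 bp and 28 fragments (18.6 to 40.5). It was the strongest of the 34 peaks over no start and exceeded 89.6% of all peaks in the list. A last intronic peak at 30.3 kb held 6 fragments, the lowest number of any peak, as did peaks near Gata4, T and Eomes.

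Sox17, an HMG-box factor of primitive and definitive endoderm, had the weakest start peak of the 7. The gene (ENSMUSG00000025902.13) lies at chr1:4490931-4497354 on the minus strand. Its start peak was 555 bp wide with a fold enrichment of 2.86, a −log10 q-value of 3.43 and 21 fragments (13.0 to 32.1). It also covered the start of Gm37587, and its summit was in an exon of both genes, so its reads cannot be assigned to Sox17 alone. Only 0.454% of start peaks had a lower fold enrichment and 5.17% were narrower. The local background was 6.70 fragments, the highest of the 7, so that 21 fragments at Sox17 gave a lower fold enrichment than 14 did at T. A cluster of 5 transcript starts from 597 to 1024 bp inside the gene was not covered. A second peak inside the gene, 3.9 kb from the start, was 2114 bp wide and held 51 fragments (38.0 to 67.1), the most of any of the 52 peaks. It covered 2 inner transcript starts, its summit was in the UTR, and its fold enrichment was 5.39 with a −log10 q-value of 19.9. The only Sox17 peak over no start was 25.8 kb from the gene start, downstream, with 3.78 and 8 fragments.

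Foxa2, a forkhead factor of definitive endoderm and the node, had the widest peak of all 52. The gene (ENSMUSG00000037025.11) lies at chr2:148042877-148046969 on the minus strand, and a peak of 3192 bp ended 87 bp short of its start. It was wider than 99.95% of all start peaks and covered 2 inner transcript starts. Its fold enrichment was 4.02, with a −log10 q-value of 8.30 and 29 fragments (19.4 to 41.6) over a local background of 6.46. The sequence directly upstream of the uncovered start (chr2:148046970-148047019, 1 CpG) and that under the intronic summit (chr2:148046336-148046436, 8 CpG) are shown on the minus strand, with CpG in capitals.
Foxa2 gene start, upstream: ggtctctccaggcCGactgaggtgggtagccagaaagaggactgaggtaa
Foxa2 inner start peak: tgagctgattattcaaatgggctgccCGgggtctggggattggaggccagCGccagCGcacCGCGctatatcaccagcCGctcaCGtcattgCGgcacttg
None of the 6 Foxa2 peaks reached a −log10 q-value of 10. The strongest, in an intron of 9030622O22Rik at 16.3 kb, had a fold enrichment of 5.22 with 13 fragments, and a peak at 7421 bp in the same gene had 4.14 with 21. Upstream, peaks 1769 and 6299 bp from the start had 2.68 and 4.33 with 19 and 12 fragments, the former with a CTCF match and the latter with a GATA match.

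Both mesoderm genes had wide start peaks. T, or Brachyury, the T-box factor of the primitive streak and notochord, lies at chr17:8434423-8442496 on the plus strand (ENSMUSG00000062327.10). Its start peak covered all 3 transcript starts and was 2145 bp wide, wider than 98.2% of start peaks. The fold enrichment was 4.78, the −log10 q-value 5.66 and the fragment number 14 (7.65 to 23.49), the fewest of the 7. The summit lay 361 bp upstream, at chr17:8434012-8434112 on the plus strand, and the sequence around it held 10 CpG dinucleotides, in capitals.
T start peak: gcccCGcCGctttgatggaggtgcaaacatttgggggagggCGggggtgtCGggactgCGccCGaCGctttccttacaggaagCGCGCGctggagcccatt
The other 4 T peaks held 6 or 7 fragments each. A group of 3 lay 13.4 to 19.7 kb upstream in introns of T2, with fold enrichments of 3.24 to 3.70, and 1 lay 21.6 kb beyond the start with 3.24. With so few fragments, none can be placed above another.

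Eomes, a T-box factor needed first in trophoblast and then in mesoderm and endoderm, lies at chr9:118478212-118486132 on the plus strand (ENSMUSG00000032446.14). Its start peak was 2266 bp wide, wider than 98.9% of start peaks, and covered all 3 transcript starts. It had a fold enrichment of 6.41, a −log10 q-value of 16.3 and 34 fragments (23.55 to 47.5), the same number as the median start peak. The summit was 1042 bp inside, in the coding sequence, at chr9:118479204-118479304 on the plus strand. This stretch held 15 CpG dinucleotides, in capitals, the most of the sequences shown.
Eomes start peak: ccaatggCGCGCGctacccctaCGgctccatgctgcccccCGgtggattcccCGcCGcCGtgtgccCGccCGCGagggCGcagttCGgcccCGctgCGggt

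Eomes had 4 peaks with a −log10 q of 10 or more, more than any other of the 10 genes. The strongest covered no start and lay 19003 bp from the start, downstream, with a fold enrichment of 8.59, a −log10 q-value of 23.3 and 38 fragments (26.9 to 52.2). Its summit sequence, chr9:118497165-118497265 on the plus strand, contained no CpG and 1 match to the KLF motif GGGTGTGG, in capitals.
Eomes downstream peak: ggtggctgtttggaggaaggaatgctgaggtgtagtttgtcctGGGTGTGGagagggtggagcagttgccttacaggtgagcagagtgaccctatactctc
A peak of 2361 bp at 10.1 kb covered the start of Gm33460, with a fold enrichment of 7.47 and 35 fragments, and the peak at 28.0 kb, with 7.72 and 22 fragments, covered the start of the golgin gene Golga4. The remaining peaks, 9747 and 6864 bp upstream and 19.9 kb from the start on the downstream side, had fold enrichments of 5.33, 2.94 and 4.65 with 12, 6 and 20 fragments. The surroundings of Eomes thus held strong peaks mainly downstream, whereas those of T held weak peaks mainly upstream.

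Cdx2, the caudal-type homeodomain factor that specifies trophectoderm, lies at chr5:147300805-147307270 on the minus strand (ENSMUSG00000029646.3) and has 1 annotated transcript. Its start peak was 1493 bp wide with a fold enrichment of 4.60, a −log10 q-value of 5.65 and 15 fragments (8.40 to 24.7). The summit was 3 bp from the start. The 47 bases upstream, chr5:147307271-147307317 on the minus strand, held 1 CpG, in capitals.
Cdx2 upstream: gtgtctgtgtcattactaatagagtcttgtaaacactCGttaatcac
A string of 3 downstream peaks exceeded the start peak. Counted from the start, peaks at 7791, 12901 and 13838 bp had fold enrichments of 6.29, 5.03 and 6.64 with 17, 15 and 18 fragments, although the counting intervals overlapped that of the start peak. Only the last passed a −log10 q-value of 10, with 10.1. Its summit sequence, chr5:147293382-147293482 on the minus strand, is given as the strongest Cdx2 peak and held no match to any motif searched.
Cdx2 downstream peak: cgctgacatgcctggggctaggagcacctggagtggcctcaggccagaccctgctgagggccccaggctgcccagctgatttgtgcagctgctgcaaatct
An intronic peak at 2045 bp had a fold enrichment of 3.41 with 11 fragments. Upstream, peaks at 8228 and 12553 bp in introns of Urad had 4.50 and 2.88 with 9 and 7 fragments.

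In the order of fragment numbers, the start peaks ran from Eomes (34) and Fgf5 (33) through Gata6 (24) and Sox17 (21) to Otx2 (16), Cdx2 (15) and T (14). The counting intervals of neighbours in this order overlapped throughout. Of the 21 pairs of start peaks, the intervals of 1 pair, T and Eomes, lay apart, by a margin of less than 1 fragment. No order of the lineages can therefore be read from the start peaks. Such intervals cover counting error only, and leave out any difference between the clones.

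**Figure D2:**
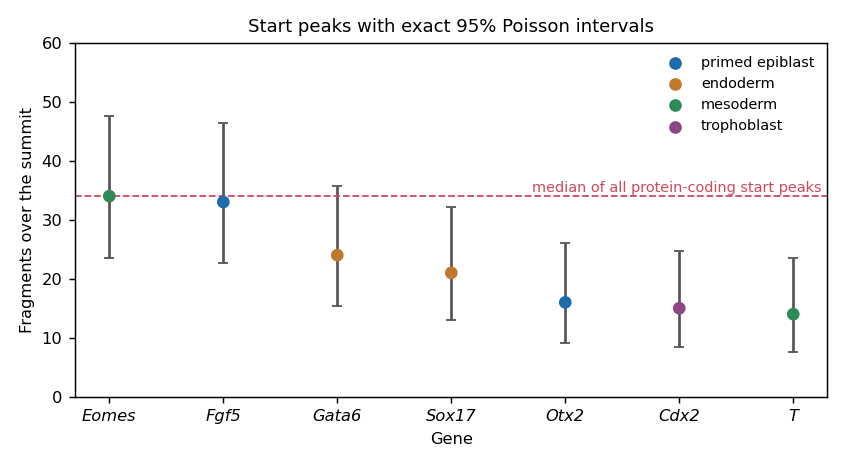
Fragments over the summit of the 7 start peaks (points, coloured by lineage) with exact Poisson intervals at 95% (bars), and the median of 34 over all protein-coding start peaks (dashed line). Eomes and Fgf5 sit at the median, and the intervals of Sox17, Otx2, Cdx2 and T lie wholly below it.

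Width and strength together set some of these peaks apart from the usual start peak. Gata6, T and Cdx2 were both wider than the upper quartile of all start peaks (1344 bp) and below their lower quartile of fold enrichment. That is 3 of the 7 start peaks, against 6.47% of all start peaks. This count was chosen after the values had been seen and has no test. Otx2 and Eomes were as wide but lay just above the quartile of fold enrichment, Fgf5 was near the median width, and Sox17 was narrow. Peaks that narrowly missed a start, at Foxa2 and Pou3f1, were wider than 99.95% and 84.4% of start peaks.

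**Figure D3:**
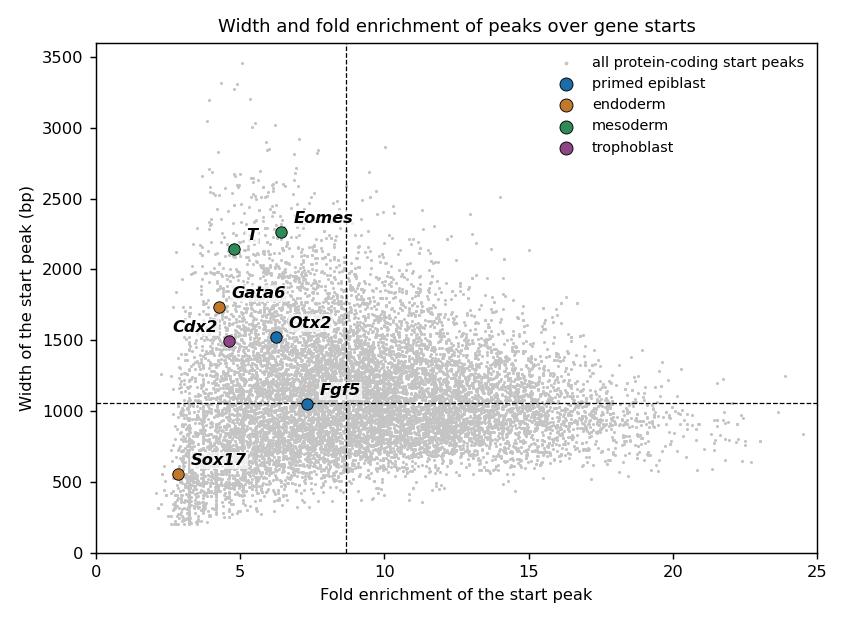
Width in bp against fold enrichment for the start peaks of all protein-coding genes (grey) and of the 7 genes with a start peak (coloured by lineage), with dashed lines at the medians of 1058 bp and 8.68. All 7 lie left of the median fold enrichment and 5 lie above the median width, with Sox17 at the lower left.

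The starts themselves were rich in CpG. The CpG observed/expected ratio, the number of CpG dinucleotides over that expected from the C and G content, had a median of 0.642 within 500 bp of the 10 starts and 0.552 over all protein-coding genes. By a ratio of at least 0.6 and a GC content of at least 50%, 7 of the 10 starts were CpG-rich, against 44.4% of all genes. All but Pou3f1 of these 7 had a start peak (6 of 7), while 94.7% of all CpG-rich starts did. Over all CpG-rich start peaks the medians were 9.29 for fold enrichment and 1112 bp for width. The 7 start peaks here had 4.78 and 1526 bp, but include that of Gata6, whose start was not CpG-rich (ratio 0.527).

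Each gene had 3 to 7 peaks within 20 kb, with a median of 5, while the median protein-coding gene had 4 (quartiles 2 and 7). Per 10 kb, 8 of 10 exceeded the median gene, at 0.638 peaks per 10 kb, and Cdx2 and Eomes were highest with 1.51 and 1.46. The share of bases in peaks was above that of the median gene (4.57%) in 9 of 10. It was 15.6% at Eomes, 15.3% at Foxa2 and 12.8% at Cdx2, then 9.02% at T, 8.75% at Otx2, 7.75% at Pou3f1, 6.71% at Sox17, 5.33% at Fgf5 and 5.29% at Gata6. Gata4, the longest of the 10 genes, was at 4.35%. Eomes, Foxa2 and Cdx2 exceeded 99.3%, 99.3% and 97.6% of all protein-coding genes. The strongest peak went the other way, being below the median of all genes (9.55) in 9 of 10, with Gata4 as the exception through the Neil2 start.

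**Figure D4:**
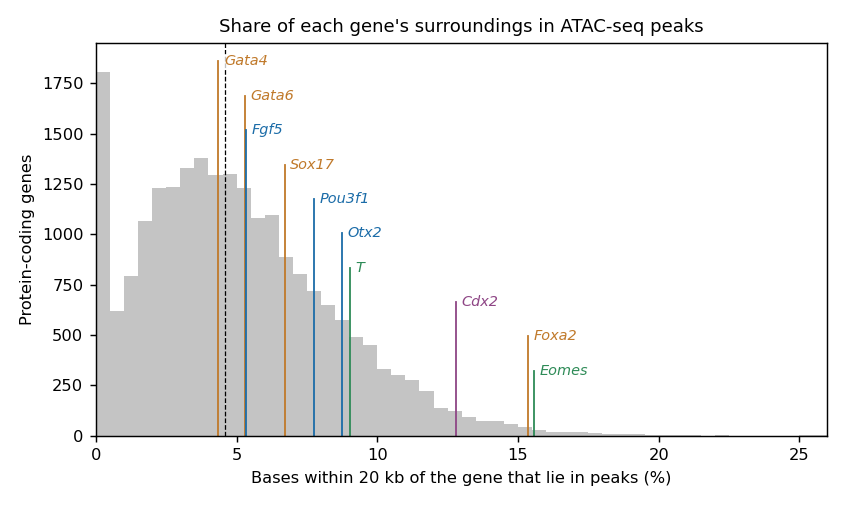
Histogram of the share of bases in peaks from 20 kb upstream to 20 kb downstream (x axis, in percent) over all protein-coding genes, with the 10 genes as lines coloured by lineage and the median gene dashed at 4.57%. Eomes, Foxa2 and Cdx2 lie in the upper tail and only Gata4 lies below the median.

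Of the 52 peaks, 12 covered a start of the gene itself, 6 only the start of another gene, and 34 no annotated start. Summits lay upstream of the gene for 14, inside it for 21 and downstream for 17. The strongest peak covered no start of its gene in 7 of 10, against 60.8% of all protein-coding genes with a peak. Every gene had at least 1 peak over no start. These 34 had a median fold enrichment of 3.99, while the 98769 such peaks of the whole list had 3.70, so as a group they were of usual strength. A −log10 q of 10 or more was reached by 5 of the 34, against 14.9% of all such peaks. They were the Otx2 peak at 18972 bp, the Gata4 peak at 15.5 kb, the Gata6 peak 11.8 kb upstream, the Eomes peak at 19003 bp and the Cdx2 peak at 13.8 kb. They belonged to 5 different genes.

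By lineage, the primed epiblast genes had 15 peaks, the endoderm genes 18, the mesoderm genes 12 and Cdx2 7. Their median fold enrichments were 4.62, 4.08, 4.71 and 4.60, and a −log10 q of 10 or more was reached by 2, 5, 4 and 1 peaks. These are 12 of 52, against 22.2% of all peaks in the list, so the count lay near the background. Fragment numbers over all 52 ran from 6 to 51 with a median of 14.5, against a median of 9 in the whole list, and 15 of 52 rested on 9 fragments or fewer, against 53.7% of all peaks. The 2 sets are unlike in make-up, since 34 of the 52 covered no annotated start, against 84.6% of all peaks. The differences between lineages were not tested.

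The DNA under the 34 peaks over no start was mostly unique sequence. The repeat-masked share within 100 bp of the summit had a median of 0%, against 13.9% over all such peaks, and 18 of 34 held no masked base, against 30.6%. The highest share was 70.6%, at the T peak 13.4 kb upstream. The median GC content was 55.5%, with a range of 41.3 to 76.1%, against 49.2%. Over the 12 peaks at own starts it was 64.9%, near the 62.7% of all start peaks.

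In the same stretch, 8 short motifs were searched on both strands. SOX motifs (ACAANG) were in 10 of the 34 peaks, or 29.4%, against 37.7% of all peaks over no start. GATA motifs (AGATAA) were in 4, or 11.8% against 8.42%, in the peaks of Fgf5 at 1765 bp, Pou3f1 9993 bp upstream, Gata4 at 15.5 kb and Foxa2 6299 bp upstream. KLF motifs (GGGTGTGG) were in 3, or 8.82% against 3.09%, near Pou3f1, T and Eomes. The OTX motif (TAATCC) was in 1, near Cdx2, or 2.94% against 5.84%, and the CTCF motif (AGGGGGCGC) in 1, near Foxa2, or 2.94% against 0.527%. The octamer bound by POU5F1 (ATGCAAAT), the ESRRB motif (TCAAGGTCA) and the T-box motif (AGGTGTGA) were in none of the 34, and were in 2.42%, 0.809% and 1.09% of all such peaks. Counts this small are descriptions, and a match is not a shown binding site.

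Wider lists of each lineage, which include the 10 genes, were counted at their starts in the same way, beside the 59.2% of all protein-coding genes. Of 18 primed epiblast genes, 15 had a start peak, with a median fold enrichment of 5.65, and the highest outside the 10 genes were Tcf15, a bHLH factor of epiblast priming, with 8.54 and the ETS factor gene Etv4 with 6.31. Dnmt3a and Sall2 had none at the gene start, but had 6.48 and 5.74 over another transcript start. Over any transcript start, 17 of 18 had a peak, against 66.6% of all protein-coding genes. Without Otx2, Fgf5 and Pou3f1, 13 of 15 gene starts were covered, with a median of 4.97. Of 19 endoderm genes, 10 had a start peak, with a median of 6.08. The laminin gene Lama1 was highest with 12.5 and 93 fragments, followed by Foxa3 with 9.03, while Afp, Cer1 and Dab2 were among those without. Dab2 had 10.9 over another transcript start, and Afp and Cer1 had none there. Over any transcript start, 14 of 19 had a peak. Without its 4 genes described above, the endoderm list had 8 of 15 starts covered and a higher median of 7.91.

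Of 19 mesoderm genes, 12 had a start peak, with a median fold enrichment of 5.19. Kdr, the VEGF receptor gene of early blood and endothelium, was at 9.13 and Tbx20 at 8.52, while Evx1, Hand1 and Lhx1 were among the 7 without. Evx1 and Hand1 had 2.71 and 3.25 over another transcript start, Lhx1 had none there, and 14 of 19 had a peak over some transcript start. Without T and Eomes, 10 of 17 gene starts were covered, with a median of 5.18. Of 18 trophoblast genes, 10 had a start peak, with a median of 4.67, the lowest median of the 4 lists. Gata3 led it with 7.29, ahead of the keratin gene Krt18 with 6.51, and Elf5, Esx1 and Gata2 had none at the gene start. Over another transcript start these had 4.44, 3.25 and 5.64, and 16 of 18 had a peak over some transcript start. Without Cdx2 and Eomes, 8 of 16 gene starts were covered, with a median of 4.50. The median start peak was below the 8.68 of all protein-coding genes in each of the 4 lists, with and without the 10 genes.

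Genes of the naive and general pluripotency network served to set a level for the cell type given in the labels. Of 15, 11 had a start peak, 14 had a peak over some transcript start, and the median fold enrichment was 6.15. Zfp42, also called Rex1, had 15.9 with 151 fragments and Klf5 14.8 with 135, while Esrrb, Nr5a2 and Sall4 were among the 4 without. In fold enrichment, the start peaks of the core factor genes lay within the range of the lineage genes or below it, whereas Nanog had more fragments than any of the 7 lineage start peaks. The start peak of Pou5f1 had a fold enrichment of 2.83 with 17 fragments and that of Nanog 4.12 with 40. No peak covered the start of Sox2, although a peak within 500 bp of it had 5.22. The surroundings of these genes differed in the strongest peak, with 10.97 for Pou5f1 and 10.1 for Nanog, both above every peak near the 10 lineage genes, and 6.58 for Sox2. Neither the Pou5f1 nor the Nanog peak covered an annotated start of its gene, where the highest values were 2.83 and 4.12. Either may cover the start of a neighbouring gene, as at Gata4, and 10.97 is also the fold enrichment of the Cchcr1 start peak. Fibroblast genes, which mark feeder cells, had start peaks at 2 of 10 (Thy1, 5.45 with 11 fragments, and Twist2, 4.74 with 12), and genes of differentiated tissues at 1 of 12 (Gfap, 4.16 with 8 fragments).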

How the data were processed

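The data were ATAC-seq peaks of 2 clones of DMSO-treated mESCs. Per the methods and the submitters' processing notes, the authors merged technical replicates, aligned reads to mm10 with STAR 2.7.10, which put each read matching several places at 1 best place with ties at random, removed duplicates with Picard 2.26.0 and called peaks on both clones merged with MACS2 2.2.6. SAMtools 1.14 and bedtools 2.30.0 are also named there. Each deposited peak carries a fold enrichment, which is a ratio, a −log10 p-value and a −log10 q-value, all at its summit. The deposited score, the −log10 p-value multiplied by 10 and truncated in 116695 peaks, was left aside.

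Fragments over each summit were calculated from fold enrichment and p-value by the formulas of MACS2 and came out whole for 116778 of 116782 peaks, within 0.001 of the deposited −log10 p-value. This step was tested on simulated data. The median peak held 9 fragments (quartiles 7 and 17), and library totals were not analysed here. Intervals are exact Poisson at 95%. The 116777 peaks on the autosomes, X and Y were set against GENCODE M21, an earlier release than the study used, with an overlap of at least 1 bp. Genome sequence was GRCm38 (mm10). Positions are counted from 1, and a gene start is the 5′ end of the gene record. The 10 genes, the lists and the motifs were chosen with earlier results of these data known. Named beside the 10 genes were Pou5f1, Sox2, Nanog and, in each list, the 2 other genes of highest fold enrichment and up to 3 without a start peak. With 1 merged list no test was made. The software was pysam 0.24.0, SciPy 1.17.1, NumPy 2.4.6, pandas 2.3.3 and matplotlib 3.10.9 under Python 3.11.15.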

Additional observations from a re-analysis of the deposited data

How the results depend on the processing

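The 6 summary values were recomputed under 26 alternatives in all, and 17 of these stayed within 1.5 times the value reported, or within the counting interval for the share of all genes. With a −log10 q of 10 or more, start peaks fell from 7 genes to 2, peaks within 20 kb from 52 to 12, and genes with a peak over no start from 10 to 5. Windows of 50 kb held 82 peaks. The share of protein-coding genes with a start peak was 45.0% at that q-value, 66.6% with any transcript start, 64.3% for a peak within 500 bp of the start, 57.4% for a summit within 500 bp and 60.3% without chromosomes X and Y. Of the 10 genes, 9 had a start peak with any transcript start, 9 with a peak within 500 bp and 5 with a summit within 500 bp. Their median fold enrichment was 4.60 to 6.87 over the alternatives, below that of all genes in each. The median number of peaks was 1.25 times that of all genes, and 1.0 to 1.53 times over the alternatives, so the higher peak number did not hold with a −log10 q of 10 or more or with 50 kb. No paired analysis was possible because the 1 list combines the clones, which also left no clone to leave out. Peaks of 6 to 9 fragments limit what can be said of single sites.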

Other observations

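Neural ectoderm, the lineage that ESCs enter when other signals are blocked, is not among the 4 lineages above. Of 15 genes of early neural ectoderm, 11 had a start peak, with a median fold enrichment of 5.08 and 6 with a −log10 q of 10 or more. The proneural genes Neurog2 and Neurog1 were highest with 9.09 (51 fragments, 2120 bp wide) and 8.58 (22 fragments). Sox1, an early neural plate factor, had 5.82 with 36 fragments, and Pax6, a factor of eye and forebrain, 4.11 with 28. En1 and Hes5 were among the genes without a start peak. The median was below the 8.68 of all protein-coding start peaks, as for the 10 genes.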
